A study of Homo sapiens with 6 samples.

Results

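In HCT116/ABsh-1 cells, 3508 of the 8046 KDM3B regions (43.6%, Wilson 95% interval 42.5 to 44.7) shared no base with any of the 17638 KDM3B regions of HCT116/Scrsh cells. They are called depleted-only regions here. They were chosen by measured values, namely by the positions in the KDM3B lists of both cell populations, so their number and their distances to control regions are a description. According to the gap to the nearest control region, 2423 of them (69.1%) lay more than 1 kb away (far regions) and 1085 (30.9%) within 1 kb (near regions). For comparison, the other 4538 regions of the depleted cells overlapped a control region (kept regions), and 13102 regions of the control cells overlapped no region of the depleted cells (lost control regions).

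HCT116 is an established human colorectal cancer cell line in which β-catenin/Tcf-mediated transcription is constitutively active. HCT116/Scrsh cells expressed a scramble shRNA and HCT116/ABsh-1 cells an shRNA against both KDM3A and KDM3B, whereas the sample labels speak of siRNA. From each population, chromatin was precipitated for KDM3B and for H3K9me2 and an input was kept (6 libraries in all), and the study asked where KDM3B binds and how H3K9me2 changes once KDM3A and KDM3B are depleted. With 1 library per antibody and population there were no replicates, so no test between populations was made, and intervals on shares cover counting error only. The lists of regions hold no read numbers, so the depth is unknown, and absence from the control list is not absence of signal. The 2 inputs were not analysed here.

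KDM3B is a histone demethylase of the KDM3 family that removes methyl groups from mono- and dimethylated lysine 9 of histone H3. Dimethylation at this position (H3K9me2) marks silenced chromatin, and removing it at promoters favours transcription. In colorectal cancer cells with active β-catenin, the demethylases are studied as coactivators of Wnt target genes. A KDM3B region called only in cells with little KDM3B is therefore a place where the KDM3B antibody pulled down more DNA than the input although the protein had been depleted.

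The sequences below come from depleted-only regions of high score, first over all of them and then among those at promoters only. All were read from the + strand of the hg19 reference. The first set shows regions beside centromeres, with the word GGAAT (or ATTCC on the other strand) of classical satellites and the CENP-B box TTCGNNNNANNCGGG of alpha satellite in capitals.
far region, chromosome 18, chr18:18519951-18520250: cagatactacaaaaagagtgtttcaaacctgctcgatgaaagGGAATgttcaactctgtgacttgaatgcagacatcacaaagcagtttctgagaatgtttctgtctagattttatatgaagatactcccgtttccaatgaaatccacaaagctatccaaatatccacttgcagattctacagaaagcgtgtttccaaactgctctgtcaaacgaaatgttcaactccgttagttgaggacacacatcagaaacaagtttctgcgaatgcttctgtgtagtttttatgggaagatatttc
far region, chromosome 19, chr19:27732001-27732300: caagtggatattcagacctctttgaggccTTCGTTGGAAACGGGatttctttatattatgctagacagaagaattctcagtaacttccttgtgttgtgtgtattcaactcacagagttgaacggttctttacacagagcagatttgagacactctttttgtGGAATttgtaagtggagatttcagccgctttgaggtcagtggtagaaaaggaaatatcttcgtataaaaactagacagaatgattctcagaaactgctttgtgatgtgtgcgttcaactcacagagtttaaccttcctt
far region, chromosome 16, chr16:46427551-46427850: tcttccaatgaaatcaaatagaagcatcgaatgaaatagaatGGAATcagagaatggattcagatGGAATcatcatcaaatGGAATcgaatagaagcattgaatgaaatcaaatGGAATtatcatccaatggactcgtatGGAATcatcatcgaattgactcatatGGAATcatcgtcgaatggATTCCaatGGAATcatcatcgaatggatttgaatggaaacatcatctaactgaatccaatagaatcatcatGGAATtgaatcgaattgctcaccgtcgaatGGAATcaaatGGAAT
far region, chromosome 10, chr10:42599551-42599850: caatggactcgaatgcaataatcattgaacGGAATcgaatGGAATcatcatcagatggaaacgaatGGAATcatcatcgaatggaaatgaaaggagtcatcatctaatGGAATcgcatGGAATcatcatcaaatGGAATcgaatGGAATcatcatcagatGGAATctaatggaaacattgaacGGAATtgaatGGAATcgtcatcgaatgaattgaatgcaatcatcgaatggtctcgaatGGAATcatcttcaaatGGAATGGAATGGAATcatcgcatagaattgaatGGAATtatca
near region, chromosome 18, chr18:18518951-18519250: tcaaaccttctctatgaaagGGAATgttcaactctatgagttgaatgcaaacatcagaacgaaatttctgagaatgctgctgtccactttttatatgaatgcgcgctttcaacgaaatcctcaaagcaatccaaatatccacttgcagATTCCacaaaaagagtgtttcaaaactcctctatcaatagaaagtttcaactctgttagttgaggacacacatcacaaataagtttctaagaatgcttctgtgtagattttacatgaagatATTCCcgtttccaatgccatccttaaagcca

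The second set shows regions that scored high among those at promoters, with each CG in capitals. Stretches that belong to exons were left out.
far region, MVD, chr16:88729570-88729705: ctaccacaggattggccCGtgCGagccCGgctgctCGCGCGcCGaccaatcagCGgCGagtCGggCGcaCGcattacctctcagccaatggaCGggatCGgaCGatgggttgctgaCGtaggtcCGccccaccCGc
far region, BTBD9, chr6:38607401-38607575: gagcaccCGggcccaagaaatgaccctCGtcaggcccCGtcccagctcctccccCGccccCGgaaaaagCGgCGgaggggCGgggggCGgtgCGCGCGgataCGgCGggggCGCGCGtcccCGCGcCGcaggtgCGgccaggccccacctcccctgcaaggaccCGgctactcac
far region, MELK, chr9:36572701-36572858: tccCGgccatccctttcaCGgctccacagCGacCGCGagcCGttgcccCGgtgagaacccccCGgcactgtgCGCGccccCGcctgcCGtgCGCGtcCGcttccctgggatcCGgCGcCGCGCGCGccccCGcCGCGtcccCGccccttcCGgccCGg
far region, GVQW3, chr11:76092177-76092346: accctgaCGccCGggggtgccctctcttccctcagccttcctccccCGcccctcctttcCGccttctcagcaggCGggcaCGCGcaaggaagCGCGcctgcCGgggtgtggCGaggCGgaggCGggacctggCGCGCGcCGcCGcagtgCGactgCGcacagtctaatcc
far region, SUPT4H1, chr17:56429276-56429359: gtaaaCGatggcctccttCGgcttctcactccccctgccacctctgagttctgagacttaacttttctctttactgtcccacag
near region, RPL10A, chr6:35435901-35436177: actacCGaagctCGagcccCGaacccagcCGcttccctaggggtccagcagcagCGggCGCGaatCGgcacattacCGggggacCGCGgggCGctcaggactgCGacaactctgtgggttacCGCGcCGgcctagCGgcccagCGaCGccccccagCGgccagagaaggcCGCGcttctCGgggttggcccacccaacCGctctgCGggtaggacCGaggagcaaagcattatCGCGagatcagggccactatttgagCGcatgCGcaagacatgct

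The composition of both sets was as follows. The stretches beside centromeres held 35.0 to 39.0% G and C, and the stretch on chromosome 10 held 15 copies of GGAAT or ATTCC. Over the 10 promoter stretches read, of which 6 are shown, the range was 50.7 to 79.7% G and C. MELK held 27 CG in 158 bases and RPL10A 30 in 277, whereas SUPT4H1 (51.2% G and C) held 2 in 84 and the stretch at HHAT (50.7%), which is not shown, 8 in 152. These are values of the stretches without exons. The whole regions held 64.8% G and C at SUPT4H1 and 66.5% at HHAT. The assembled hg19 genome holds 40.9% on average.

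The gap between a depleted-only region and the nearest control region was most often 0. As shown by the plot of gaps, 706 depleted-only regions abutted a control region without sharing a base, which is 65.1% (62.2 to 67.8) of the near regions. A further 126 had a gap of 100 bp, the width of 1 window of the authors' calling. Beyond 500 bp the number per step of 100 bp stayed between 8 and 27 up to a gap of 2 kb, and the limit of 1 kb fell in this flat part, with 20 regions at a gap of 1000 bp and 14 at 1100 bp.

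Values on both sides of each limit of the rule are given as a description. The score is a whole number that the authors gave each region, and its meaning is not given in the sources used here, so it served here to order regions of the same list. Of the kept regions, 3035 shared a single window with the control list, and their median score was 18, against 14 for the 706 abutting regions. The 42 regions with a gap of 900 or 1000 bp had a median score of 9.5, and the 26 with a gap of 1100 or 1200 bp one of 10.5.

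For 1021 of the 1085 near regions (94.1%) the nearest control region overlapped no region of the depleted cells. The rule itself favours this, since a near region overlaps no control region and its neighbour is kept only where another region of the depleted list lies close, and 13102 of all 17638 control regions were lost. The near regions had 1061 distinct nearest control regions, 23 of which were nearest to more than 1 near region. The control region carried the higher score in 858 pairs (79.1%), with medians of 22 for the control and 13 for the near region, but the scores of different libraries are not on a common scale. In 598 pairs (55.1%) both regions were equally wide. Place was compared only where both regions had the same protein-coding gene as the one with the nearest main-transcript start site. In 437 such pairs the near region lay within 5 kb of that start site. The near region was the nearer one to that start site in 226 of them (51.7%, 47.0 to 56.4). It lay downstream of its control region, in the direction of transcription, in 243 (55.6%, 50.9 to 60.2).

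The far regions were spread widely. Their gap to a control region had a median of 31.6 kb, and 465 of them were over 100 kb and 18 over 1 Mb from any control region. The nearest other region of the depleted list lay at a median of 59.5 kb and the nearest kept region at a median of 123 kb. In all, 385 far regions (15.9%, 14.5 to 17.4) had another region of the depleted list within 10 kb.

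The depleted-only regions ranked low among the regions of their own list. The median score was 11 for far, 13 for near and 25 for kept regions. A single window of 100 bp made up 78.5% of the far and 79.6% of the near regions, against 47.7% of the kept ones, although the study's methods describe a cutoff with neighbouring significant windows. A minority stood high, with 52 far and 16 near regions at a score of 50 or more. Both measures belong to the list that defined the regions, so no difference was tested.

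The position relative to genes was not itself part of the rule. Far regions lie more than 1 kb from control regions, however, and control regions often lie near genes. The place of far regions near genes is therefore not independent of the rule. A transcription start site (TSS) of any annotated transcript lay within 5 kb of 56.6% of the far regions (54.6 to 58.6), close to 55.2% of the kept regions, and the difference of 1.42 percentage points had a Newcombe 95% interval of −1.03 to 3.86. The near regions stood higher at 65.3% (62.5 to 68.1), which was 10.1 points above the kept regions (6.92 to 13.3). Since near regions lie within 1 kb of a control region by their definition, their place near genes is tied to that of the control regions, of which the lost ones had a share of 55.0%. Within 1 kb of the start site of the main transcript of a protein-coding gene (the canonical TSS), the order was 32.1% of near, 23.9% of far, 21.8% of lost control and 18.5% of kept regions. Here the far regions exceeded the kept regions by 5.41 points (3.39 to 7.47) and the lost control regions by 2.05 points (0.248 to 3.93).

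Among gene features, promoters followed the order near, far, lost control and kept regions, while introns, distal DNA and coding exons did not. Promoters (3 kb upstream of a TSS) held 38.8% of far, 47.4% of near, 36.3% of lost control and 35.4% of kept regions, and make up 10.8% of the assembled genome. Introns held 28.4% of far, 20.5% of near, 25.8% of kept and 28.9% of lost control regions. DNA distal to any gene held 19.1%, 17.6%, 23% and 20.9% of these classes. Coding exons outside promoters held 24 far regions (0.991%, 0.667 to 1.47) and 17 kept ones (0.375%), a difference of 0.616 points (0.222 to 1.12) between rare classes.

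The abutting regions and the other near regions did not have the same place. Of the 706 abutting regions, 56.7% (53.0 to 60.3) lay within 5 kb of a TSS, as did 81.5% (77.3 to 85.1) of the 379 near regions with a gap of 100 to 1000 bp. Among far regions the share fell with the gap, from 64.1% at up to 10 kb to 57.9% at up to 100 kb and 43.9% beyond. Control regions themselves lie often near TSSs, so this decrease is tied to the rule.

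Around the canonical TSS, the depleted-only regions extended further into the gene than the kept ones. Of the far regions within 2 kb of a canonical TSS, 261 of 672 (38.8%, 35.2 to 42.6) had their centre downstream of it, and of the near regions 161 of 396 (40.7%, 35.9 to 45.6). The kept regions had 251 of 979 there (25.6%, 23 to 28.5), so far regions exceeded them by 13.2 points (8.61 to 17.8) and near regions by 15 points (9.51 to 20.6). The lost control regions had 37.3% downstream, and the far regions did not differ from them beyond counting error (1.56 points, −2.41 to 5.64). The step most often filled was the 200 bp just upstream of the TSS in each class, with 36.8% of far and 40.2% of kept regions.

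CpG dinucleotides are the target of DNA methylation in mammals, and DNA rich in them marks many promoters. A larger share of depleted-only regions than of kept or lost control regions was CpG-rich, but most depleted-only regions were not. A window of 300 bp around the region centre was called CpG-rich with at least 50% G and C and a ratio of observed to expected CpG of at least 0.6. This held for 31% of far (29.2 to 32.9), 38.4% of near and 25.8% of kept regions, for 21.8% of lost control regions, and for 1.55% of 28586 windows spaced evenly along the genome. Far regions exceeded the kept ones by 5.21 points (2.98 to 7.46) and the lost control ones by 9.24 points (7.29 to 11.2). Among regions of 1 window, the shares were 26.8% of 1903 far and 18.3% of 2164 kept regions, so the difference was also present at equal width. It was not present at every score, since among regions with a score of 2 to 9 the shares were 27.8% of 780 far and 41.3% of 155 kept regions, against 29.7% and 18.3% at a score of 15 to 24. The TSS share behaved likewise, at 57.8% of far and 69.7% of kept regions with a score of 2 to 9. The median ratio of observed to expected CpG was 0.351 in far, 0.463 in near, 0.377 in kept and 0.314 in lost control regions. The mean content of G and C was 55.4 ± 12% over far, 57.3 ± 11.3% over near and 55.6 ± 9.31% over kept regions (SD over regions, which are not replicates), so the means were close and the far regions spread more.

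Short words that transcription factors recognise were searched on both strands of the same 300 bp, and a match is only a description. TGANTCA, the word of AP-1 (dimers of Jun and Fos proteins), was found in 12.2% of far (11.0 to 13.6), 10.4% of near and 11.8% of kept regions. In the lost control regions it stood at 18.1% and in the evenly spaced windows at 9.28%, so the difference of far from lost control regions was −5.90 points (−7.32 to −4.39). Outside promoters the shares were 15.5% of far and 21.7% of lost control regions, and at promoters 7.03% and 11.9%. ATCAAAG or TTCAAAG, words of the TCF/LEF factors through which β-catenin acts, were found in 7.76% of far, 7.93% of near, 8.07% of kept and 11.3% of lost control regions, all below the 12.2% of evenly spaced windows.

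Words with a high content of G and C were more frequent than in evenly spaced windows. GGGCGG, bound by SP and KLF factors, was in 26.7% of far and 32.9% of near regions against 4.07% of evenly spaced windows. It was also in 26.6% of kept and 23.7% of lost control regions, so a high share was not particular to depleted-only regions. CCGGAAG, bound by ETS factors, was in 5.04% of far and 8.48% of near regions, a difference of 3.44 points (1.66 to 5.42), against 0.717% of evenly spaced windows. The kept regions had it at 5.99% and the lost control regions at 6.32%. The other words searched gave similar shares in far and kept regions. They were 6.69% and 6.99% for the E-box CACGTG, 0.660% and 0.881% for the CRE word TGACGTCA, 31.3% and 31.8% for CCAAT, bound by NFY, 9.16% and 9.54% for the GATA word AGATAA, and 3.10% and 3.59% for the forkhead word TGTTTAC. In the evenly spaced windows these 5 words had shares of 2.71%, 0.105%, 37.7%, 21.2% and 5.05%.

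At promoters, far regions had CCAAT and the ETS word less often than kept regions, while for the other words compared there, and for all of them in near regions, the interval of the difference from kept regions held 0. Within 1 kb of a canonical TSS, 88.4% of 579 far, 82.5% of 348 near and 85.1% of 839 kept regions were CpG-rich, and 73.1% of 2862 lost control regions. CCAAT was found at 26.1% of these far regions (22.7 to 29.8), 31.9% of near, 33.5% of kept and 37.7% of lost control regions, so the difference of far from kept regions was −7.41 points (−12.1 to −2.56). For near regions the difference from kept ones was −1.60 points (−7.30 to 4.35). The ETS word was at 15% of far and 19.8% of kept promoter regions (−8.66 to −0.711 points), and at 18.4% of near ones (−6.07 to 3.70 points from kept). TCF/LEF words were at 3.63% of far and 3.93% of kept promoter regions, with an interval of −2.28 to 1.86 points for the difference.

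The highest scores among the depleted-only regions were found beside centromeres. Of the 20 far regions with the highest score, 13 lay within 1 Mb of a centromere gap, the unassembled stretch of 1 Mb or more in the reference, and so did 5 of the 20 near regions and 7 of the 20 kept regions with the highest score, but none of the 20 such lost control regions. In all, 59 far regions (2.43%, 1.89 to 3.13), 16 near, 36 kept (0.793%) and 137 lost control regions (1.05%) lay there. Far regions exceeded the kept ones by 1.64 points (1.02 to 2.37). Each unassembled stretch of 1 Mb or more counted as such a gap, including any that does not hold the centromere. The 75 depleted-only regions within 1 Mb of a gap were spread over 18 chromosomes. Of these regions 17 were on chromosome Y, 12 on chromosome 10 and 7 each on chromosomes 2 and 16.

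Some of these regions held signs of satellite DNA, the tandem repeats of centromeres. Alpha satellite repeats a unit of fixed length. A repeat with the period of that unit or its double, at a self-identity of at least 45%, was found around 24 of 2423 far regions. Of these 24, 22 lay beside centromere gaps. Such a repeat was also found around 3 of 1085 near, 5 of 4538 kept and 12 of 13102 lost control regions. GGAAT words made up at least 15% of the window in 21 far regions (0.867%) and 4 near regions, all of them beside centromere gaps, and in 1 kept region, 18 lost control regions (0.137%) and 0.0595% of evenly spaced windows. The CENP-B box, the binding site of the centromere protein CENP-B, was found in 11 far regions (0.454%, 0.254 to 0.811), 1 near, 5 kept and 7 lost control regions, and in 0.0280% of evenly spaced windows. The median score of far regions was 26 beside centromere gaps and 11 elsewhere. Kept regions had 49 and 25, with the highest score of the whole depleted list, 6248, beside a gap, and lost control regions had 16 and 19.

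Among the named regions, the far region of highest score was chr18:18519801-18520400 (score 445), 9.20 kb from the centromere gap and downstream of ROCK1, a kinase of the actin cytoskeleton. A near region of score 450, chr18:18518801-18519400, lay beside it, and another of score 176 followed at chr18:18517101-18517300. On chromosome 19 a far region of score 359 at chr19:27732001-27732300 lay 368 bp from the centromere gap, with a second of score 130 at chr19:27733101-27733300. The nearest TSS to both was that of ENSG00000279882, and no protein-coding gene was near, since the canonical TSS of UQCRFS1, a subunit of respiratory complex III, is 1.97 Mb away. GGAAT repeats made up chr16:46427501-46427900 (score 273) and chr10:42599301-42600100 (score 267, 800 bp wide), and on chromosome 10 also the near region chr10:42385101-42385300 (score 287). The nearest TSSs were those of ENSG00000290429 on chromosome 16 and of KSR1P1 on chromosome 10, and the nearest canonical TSSs those of SHCBP1 and ZNF33B. Near KSR1P1 were also the far region chr10:42398601-42398800 (score 147), with a repeat period of 339 bp, and the near region chr10:42396701-42396900 (score 93), which abutted a control region.

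3 of the 10 far regions of highest score lay outside these flanks and outside promoters of protein-coding genes. The region chrX:108297601-108297900 (score 184) lay in an exon of the non-coding gene CTD-2328D6.1 and was overlapped by H3K9me2 of depleted cells over 200 bp. The region chr4:68265301-68265600 (score 141) lay in distal DNA, with ENSG00000250075 as the nearest gene, 146 kb from the canonical TSS of CENPC, had a repeat period of 340 bp with 71.5% identity, and overlapped H3K9me2 over 100 bp. The region chr16:33953101-33953300 (score 121) lay in distal DNA, with AC136932.2 as the nearest gene, 700 bp from an H3K9me2 region. The remaining one outside the flanks, at ENSG00000288000, lay at a promoter.

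**Figure D1:**
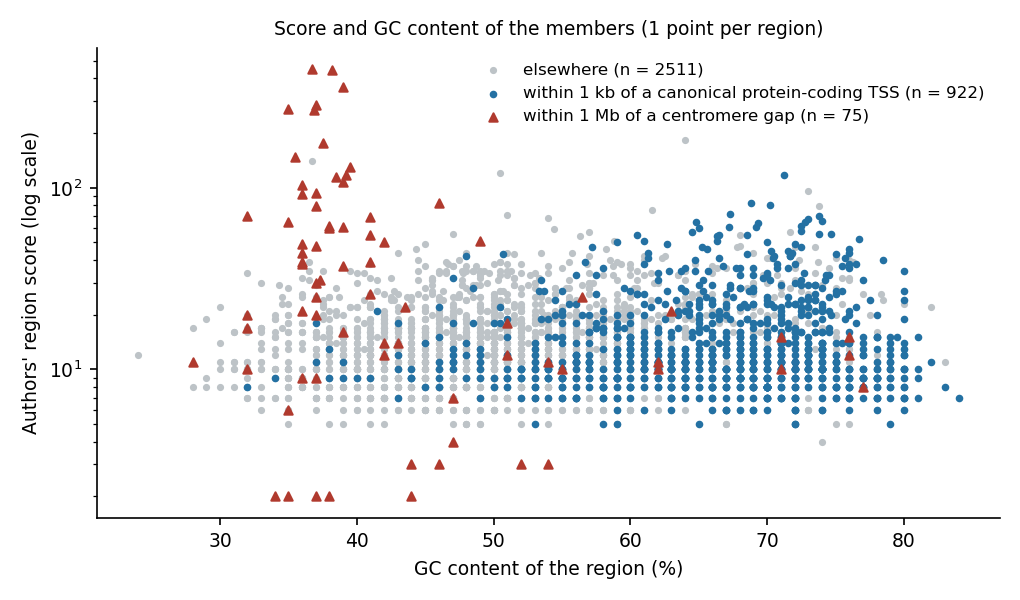
Score given by the authors (log scale) against content of G and C (percent) for each of the 3508 depleted-only regions, 1 point per region. The 75 regions within 1 Mb of a centromere gap are triangles and those within 1 kb of a canonical TSS are blue, and the near region of score 450 and the far region of score 445 stand at 36.7 and 38.2% G and C.

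Wide far regions gathered at promoters. Of the 41 far regions of 400 bp or more, 23 had their centre within 1 kb of a canonical TSS and 4 lay beside centromere gaps. The share within 5 kb of a TSS was 54.8% of far regions of 1 window, 59.8% of those of 2 windows, 68.3% of those of 3 and 85.4% (71.6 to 93.1) of the 41. The share of CpG-rich windows over the same widths was 26.8%, 42.6%, 51.5% and 70.7%. Kept regions of 400 bp or more reached 75.5% and 51.3%, so a rise with width was not particular to far regions.

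The widest far region covered the promoter of MVD, which encodes mevalonate diphosphate decarboxylase of cholesterol synthesis. It was 900 bp wide, at chr16:88729001-88729900, had a score of 80, reached from 401 bp upstream to 498 bp downstream of the canonical TSS and had its centre in the first exon. The nearest control KDM3B region was 74.0 kb away. In depleted cells, an H3K9me2 region of 200 bp (score 45) abutted its downstream end, and 3 further ones had scores of 58, 155 and 127.

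The far regions of highest score at promoters were chosen for naming after their values were seen, except those at ENSG00000288000, MVD and SUPT4H1, which the naming rule holds. At ENSG00000288000 the region was chr20:42086401-42087000 (score 117). At GVQW3 it was chr11:76092101-76092500 (score 82), centred 67 bp upstream of the canonical TSS. At BTBD9, a gene of a BTB domain protein, it was chr6:38607401-38607900 (score 70). The nearest H3K9me2 region of depleted cells was 48800 bp away at the first, 50200 bp at the second and 75100 bp at the third.

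At MELK, a kinase of dividing cells, the region chr9:36572701-36573000 (score 67) was centred 42 bp upstream of the TSS, and the nearest control region was 156 kb away. SUPT4H1, a subunit of the transcription elongation factor DSIF, had chr17:56429201-56429800 (score 65, 600 bp wide). MGA, a partner of MAX, had chr15:41952601-41953100, centred in its first intron (score 61), and PDS5B, a regulator of cohesin, had chr13:33160201-33160600 (score 57). Far promoter regions at C5orf24, GCFC2, LANCL2 and TARBP1 had scores of 66, 64, 62 and 61 and are not described further. The nearest control region was 34100 bp away at SUPT4H1, 102500 bp at MGA and 46900 bp at PDS5B.

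Near regions of high score were also found at promoters, each beside a control region. At CNOT8, a deadenylase subunit, the near region chr5:154237901-154238200 (score 72) followed a control region of 800 bp (score 86) after a gap of 100 bp, and reached over the TSS, whereas the control region was centred at −787 bp from it. At DALRD3 the near region chr3:49055301-49055700 (score 65) abutted a control region of 200 bp (score 33), and a second control region 3.09 kb upstream was kept in depleted cells with a score of 57. The near regions at MEIS2, a homeobox factor, ADAM22, HHAT, which palmitoylates hedgehog proteins, RPL10A, a ribosomal protein, and TBX6, a T-box factor, had scores of 60, 58, 55, 51 and 50. These 7 were also named after their values were seen.

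H3K9me2 was a readout that the rule did not use. The list of depleted cells held 88855 H3K9me2 regions over 27.6 Mb (0.966% of the assembled genome), and that of control cells 11645 regions over 1.69 Mb (0.0590%). An H3K9me2 region of depleted cells overlapped 52 far (2.15%, 1.64 to 2.80) and 14 near regions (1.29%, 0.770 to 2.15), against 29 kept (0.639%) and 68 lost control regions (0.519%). Over all regions of the depleted list the share was 1.18%. Far regions exceeded the kept ones by 1.51 points (0.930 to 2.19), and among regions of 1 window the shares were 2.00% of far and 0.139% of kept regions. These are small numbers of regions, and the large majority of depleted-only regions carried no such overlap.

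Within 5 kb the order changed. An H3K9me2 region of depleted cells lay within 5 kb of 35.7% of far (33.9 to 37.7), 39.8% of near, 37.9% of kept and 32.2% of lost control regions. The far regions did not differ from the kept ones beyond counting error (−2.16 points, −4.52 to 0.223) and exceeded the lost control ones by 3.52 points (1.48 to 5.61). The share differed with the distance to control regions, with 47.3% of far regions at a gap of up to 10 kb, 36.6% at up to 100 kb and 19.6% beyond. H3K9me2 regions of control cells lay within 5 kb of 6.11% of far and 3.72% of kept regions (2.38 points, 1.32 to 3.53), and overlapped 2 far and 1 near region.

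The 66 overlapped regions were mostly small. Of them 44 had 1 window, 53 were covered by H3K9me2 over their whole width, 22 lay in promoters, 19 in introns and 2 beside centromere gaps. Their median KDM3B score was 10.5, while the overlapping H3K9me2 regions had a median width of 400 bp. The overlapped regions of highest score after those on chromosomes X and 4 were the near region chr17:41382101-41382300 (score 68) at the promoter of the non-coding gene LINC00854, the far region chr10:98561301-98561500 (score 56) in distal DNA, nearest to MIR607 and 30.7 kb upstream of LCOR, a ligand-dependent corepressor, and the far region chr10:121632601-121633000 (score 47) at the promoter of MCMBP, a binding protein of the MCM helicase.

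Counting depleted-only regions up to 5 kb from a TSS, 3144 of the 64449 annotated genes (4.88%) and 1959 of the 20163 protein-coding genes (9.72%) had at least 1. Of these protein-coding genes, 1107 also had a control region and 852 had none (5.49% and 4.23% of all protein-coding genes). For comparison, 7049 of all protein-coding genes (35%) had a control region. Most protein-coding genes with a depleted-only region had a single one, with 1806 genes at 1, 143 at 2, 9 at 3 and 1 at 4. H3K9me2 of depleted cells lay at 56.6% of protein-coding genes with a depleted-only region (54.4 to 58.8), at 58.8% of those with a kept region, at 53.4% of those with a control region and at 49.2% of all.

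The gene with 4 depleted-only regions was GSE1, a coiled-coil protein found with histone deacetylase complexes. A far region of 600 bp (chr16:85592801-85593400, score 57) and one of 100 bp lay in introns, and near regions of 100 and 200 bp lay at promoters of the gene. GSE1 had 6 control regions, 1 kept region and 33 H3K9me2 regions of depleted cells near its TSSs, against 1 of control cells. ABCA7, a lipid transporter, and ANXA11, a calcium-dependent membrane-binding protein, had 3 each. FAM83H and IQANK1, which neighbour each other on chromosome 8, shared the same 3, among them a near region of 700 bp with a score of 96.

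The Wnt pathway sends its signal from secreted ligands through Frizzled receptors to β-catenin, which is otherwise destroyed by a complex with GSK3 and casein kinase, and which activates target genes with TCF/LEF factors in the nucleus. Of the 31 Wnt target genes that the study listed, 9 (29.0%) had a depleted-only region within 5 kb of a TSS, namely BIRC5, CCND1, CD44, DKK1, EFNB1, EFNB2, ID2, JUN and PLAUR. The share among all protein-coding genes was 9.72%. The study chose this list for its own question in these cells, so it is not independent evidence. A control region lay at 19 of the 31 genes, against 7049 of the 20163 protein-coding genes (35%). Only EFNB1 and BIRC5 had a depleted-only region and no control region.

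The other 7 had control regions within 5 kb of a TSS, of which 1 at CCND1 was kept and none at CD44, DKK1, EFNB2, ID2, JUN and PLAUR. At DKK1, a secreted Wnt antagonist, a near region of 300 bp (chr10:54074201-54074500, score 23) lay over the first exon, 160 to 459 bp downstream of the TSS. The control region of 400 bp (score 72) covered the TSS itself and was lost. At CCND1, which encodes Cyclin D1, a far region of 200 bp (chr11:69451401-69451600, score 23) lay 4.42 kb upstream of the TSS, while 5 control regions lay within 5 kb and 1 was kept.

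At JUN, a subunit of AP-1, the near region chr1:59249701-59249800 (score 10) covered the TSS, and a lost control region (score 16) lay upstream after a gap of 1000 bp. H3K9me2 of depleted cells covered 400 bp of the coding exon (score 86), and a region of 100 bp was listed in each population further downstream. At EFNB1, an ephrin, the far region chrX:68047801-68047900 (score 14) lay 1.01 kb upstream. At BIRC5, the apoptosis inhibitor survivin, the far region chr17:76210301-76210400 (score 10) covered the TSS, and H3K9me2 regions of depleted cells were centred at −1884 and −2734 bp from the TSS. At ID2, an inhibitor of helix-loop-helix factors, the near region chr2:8825901-8826200 (score 39) lay downstream of the gene.

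The other 3 had regions of 1 window with low scores, 9 just upstream of the TSS of CD44, an adhesion receptor, 9 in the first intron of EFNB2, an ephrin, and 8 in an intron of PLAUR, the urokinase receptor. The 22 target genes with no depleted-only region were ATOH1, AXIN2, BMP4, CLDN1, EDN1, FGF18, FGF20, FOSL1, GAST, JAG1, L1CAM, LEF1, MET, MMP7, MSL1, MYC, MYCBP, NRCAM, PPARD, TCF4, TCF7 and TIAM1. AXIN2, the feedback inhibitor of the pathway, had 4 control regions of which none was kept, and MYC, a transcription factor of cell growth, had 5 of which 1 was kept.

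In the other lists of the pathway the share of genes with a depleted-only region lay around the 9.72% of all protein-coding genes. Of 19 Wnt ligands 2 had a depleted-only region (10.5%), of 16 receptors and co-receptors 2 (12.5%), of 19 genes of signal transduction and the destruction complex 3 (15.8%), of 25 nuclear partners of β-catenin 2 (8%) and of 24 antagonists and feedback genes 2 (8.33%, DKK1 and KREMEN1). At WNT10B the far region (chr12:49365701-49365800, score 12) lay 232 bp upstream of the TSS between H3K9me2 regions of depleted cells, the widest of 1300 bp with a score of 312. At WNT10A a far region of score 8 lay in coding exon 3 inside an H3K9me2 region of 400 bp. The receptors were FZD3, a Frizzled, with a score of 20 just upstream of its TSS, and ROR1 with a score of 9.

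At GSK3A, a kinase of the destruction complex, the far region chr19:42748701-42749200 was 500 bp wide with a score of 59, 2.20 kb upstream of the canonical TSS and 1.10 kb from a control region, just outside the limit. CSNK1D, a casein kinase, had a far and a near region of scores 10 and 17, and PPP2CA, a phosphatase catalytic subunit, a far region of score 11. SMARCA4, the ATPase of the SWI/SNF remodeller, had 2 far regions of scores 8 and 11, and TLE5, of the Groucho family, a near region of score 7. KREMEN1, a receptor of DKK proteins, had a far region of score 5 in its first intron.

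Of 12 H3K9 demethylases, 1 had a depleted-only region (8.33%), namely JMJD1C, with a far region of score 9 located 313 bp upstream of its TSS. Neither KDM3A nor KDM3B had one. Of 16 H3K9 methyltransferases and readers, 5 had one (31.2%), against 9.72% of all protein-coding genes, and 4 of the 5 rested on single regions with scores of 10 to 15. They were WIZ, a partner of the H3K9 methyltransferases G9a and GLP, with a score of 32, ATF7IP, a partner of SETDB1, with 15, CBX1 and CBX5, the HP1 proteins that bind methylated H3K9, with 10 each, and SETDB2, a SET domain protein, with 11. ATF7IP, CBX1, CBX5 and SETDB2 had no H3K9me2 region within 5 kb of a TSS in either population, whereas WIZ had 13 in depleted and 1 in control cells.

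Of 21 intestinal and colorectal cancer stem cell genes 1 had a depleted-only region (4.76%, CD44), and of 20 intestinal differentiation genes 2 (10.0%). The latter were GATA6, a transcription factor of the intestine, with a far region over its TSS (chr18:19749501-19749700, score 18) and H3K9me2 regions of depleted cells on both sides, and HES1, a target of Notch, with a score of 11. The share over all protein-coding genes was 9.72%, and each list is short.

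The depleted-only regions were spread unevenly over the chromosomes. Chromosome 19 held 7.43% of far regions, 3.81 times its share of the assembled genome, and 8.39% of near regions (4.30 times), against 2.88 times for kept regions. Chromosomes 22 and 17 followed for far regions with 2.37 and 2.14 times, against 1.97 and 2.64 times for kept regions. Chromosomes X, 18 and 13 stood lowest for far regions at 0.344, 0.458 and 0.469 times. Kept regions had 0.25, 0.599 and 0.415 times there, so an uneven spread was not particular to depleted-only regions. Chromosome Y held 15 far regions, 14 of them beside centromere gaps.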

How the data were processed

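KDM3B and H3K9me2 were measured by ChIP-seq, with 1 library for each antibody in each cell population. Per the study's methods and the submitters' processing notes, the authors mapped reads to hg19 with Bowtie, kept uniquely mapping reads, and compared ChIP with input in 100-bp windows by a Poisson p-value. They deposited a list of regions per ChIP library with a score, whose meaning is not given in the sources used here.

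Overlaps required 1 bp. Gaps were counted between region edges, and TSS distances from region centres. Genes came from GENCODE release 44 lifted to hg19. Motifs and CpG were read in 300 bp. Wilson and Newcombe 95% intervals cover counting error only. The regions and gene lists were chosen with earlier results of these data known. Named are the genes nearest to the 10 far and 5 near regions of highest score, the 5 widest far regions, the 5 genes with most regions, list genes, and 5 regions overlapped by H3K9me2. Overlap and share calculations were tested on simulated data. Python 3.11.15, numpy 2.4.6, pandas 2.3.3, scipy 1.17.1, statsmodels 0.14.6 and pysam 0.24.0 were used. Alternatives changed the overlap, the near limit, the lists' length and the annotation.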

Additional observations from a re-analysis of the deposited data

How the results depend on the processing

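Of 74 alternatives tried on 13 results, 35 moved the value by less than its interval, or a count by less than 1.5 times, and 39 moved it further. With the 4210 regions of highest score in the depleted list, 940 depleted-only regions remained (622 far, 318 near). Then 372 genes had such a region and no control region, and 3 Wnt targets had one. With the control list shortened to the length of the depleted one there were 4018 far and 454 near regions and 2793 such genes. Among near regions at or above the median score of the near regions, 60.4% lay within 5 kb of a TSS and 42.8% in promoters. Counting only regions of 2 or more windows in both lists left 1298 (1188 far, 110 near). Calling abutting regions shared left 379 near ones. Among far regions of 2 or more windows, 63.5% lay within 5 kb of a TSS and 48.8% in promoters, with 58.5% mean G and C, and among near ones 71.0%, 55.2% and 60%. Protein-coding genes alone gave 45.8% of far and 54.0% of near regions within 5 kb of a TSS, 31.3% and 38.5% in promoters, and 852 genes. With 2 kb in place of 5 kb the TSS shares were 43.7% and 54.5%, and promoters on both sides of the TSS gave 48.9% and 57.8%. The mean G and C in 300 bp was 54.2% for far and 56.7% for near regions. H3K9me2 of depleted cells was at 2.15% of far and 1.29% of near regions by overlap, 16.1% and 13.9% within 1 kb, 46.0% and 52.0% within 10 kb, and 10.9% and 11.9% within 5 kb with that list shortened to the length of the control list. The cause of these shifts was not tested beyond what each setting changes by its construction. Leaving out regions within 1 Mb of a centromere gap, chosen after seeing the data, moved no share or mean beyond its interval (57.7% of far and 65.7% of near regions then lay within 5 kb of a TSS).

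There were no replicates, and read numbers are unknown, so whether a region listed in only one population differed in signal between them was not tested. With those 4210 regions, 22.3% of the depleted list were depleted-only regions, with the shortened control list 55.6%. Regions beside centromeres rest on reads that map uniquely within repeats.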
